A study of Mus musculus with 10 samples.

Results

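The genes described here encode molecular chaperones, heat shock proteins and immunophilins, the proteins that fold other proteins. A clone was taken as a member where the platform's probe annotation gives it a single gene symbol that starts with Hspa, Hspb, Hspd, Hspe, Hsph, Hsp90, Dnaja, Dnajb, Dnajc, Pdia or Fkbp, or that names a subunit of the cytosolic chaperonin (Tcp1 and the Cct genes), a cyclophilin (Ppia to Ppih), Calr, Canx, Ptges3, Stip1 or Cdc37. Fkbp5, a known glucocorticoid target, was left out. The rule found 133 clones of 65 genes among the 15600 clones of the array, with 2 spots for each clone. By the place where the protein works, 29 clones of 16 genes belong to the endoplasmic reticulum (ER), 91 clones of 41 genes to the cytosol or nucleus, and 11 clones of 6 genes to the mitochondrion. Fkbp8, of the outer mitochondrial membrane, and Hspd1-ps3, a pseudogene of Hspd1, were kept apart with 1 clone each. The cytosolic class also takes every member with no other assignment, among them the ER membrane J protein Dnajc14, which had no spot listed on a dexamethasone array.

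M-1 cells, an established line from the mouse cortical collecting duct, were grown to confluence, kept in medium nominally free of steroid, and then given 100 nM dexamethasone, a synthetic glucocorticoid, or steroid-free medium for 3 hours. RNA was hybridised in Cy3 and Cy5 to spotted cDNA arrays of expressed sequence tags from the National Institute of Aging collection. There were 3 dexamethasone pairs, each with treated RNA in Cy5 and control RNA in Cy3, and 2 control pairs in which both channels are titled control, so that 5 Cy3 and 2 Cy5 channels are controls. Dyes were not swapped, so dye and treatment cannot be told apart within the dexamethasone pairs, and the control pairs carry the dye alone. Titles and treatment text disagree for 5 of the 7 control channels, where the text has the cells treated with dexamethasone. Groups follow the titles, and every direction given depends on that. The labels do not state that replicates are separate cultures, so a p-value here covers the spread among these arrays alone, and that spread may be technical. M-1 cells are 1 cell line, and no other collecting duct cells were measured.

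Chaperones of the HSP70 class bind exposed hydrophobic stretches of a protein and release them when ATP is exchanged, and J proteins deliver the client and start the ATP cleavage. HSP90 finishes the folding of signalling proteins, and the glucocorticoid receptor is its textbook client: HSP70 and a J protein load the receptor, Stip1 bridges HSP70 to HSP90, and the immunophilin Fkbp4 takes part in carrying the receptor to the nucleus. In the ER, Hspa5 (BiP), the lectins calnexin and calreticulin, and the protein disulfide isomerases fold secreted and membrane proteins. Sodium channel subunits of the collecting duct are such membrane proteins.

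The form of the deposited data sets what can be said. The dexamethasone arrays list 3778, 3994 and 4002 spots, which are 12.1%, 12.8% and 12.8% of all spots, and these are spots with an outlying Cy5/Cy3 ratio, since each array has an empty band around its centre. After centring, the smallest listed ratios were 0.29, 0.48 and 0.27 in size (log2). A clone absent from a dexamethasone array therefore has no measured ratio there, and the ratios that are listed are large by selection, which can enlarge their difference from the control pairs and narrow their SD. Control pairs list nearly every spot, so the same share of spots, 12.6%, was taken from them by size of the centred ratio at like intensity, to serve as a background. Median channel intensity ran from 327 to 1076 in the control pairs and from 355 to 880.5 in the dexamethasone pairs. Clones of the epithelial genes Krt7, Krt8, Krt18, Cldn7 and Epcam were bright, while those of the cadherin Cdh1 (2 clones) and the anion exchanger Slc4a1 (1 clone) were dim, with control-pair intensities between 289 and 888.5. The 12 clones of the collecting duct marker list (7 genes) had a median brightness above 98.0% of all clones, against 51.3% for 12 fibroblast clones, 16.5% for 2 leukocyte and endothelial clones and 8.38% for 2 proximal tubule clones. The defining collecting duct markers Aqp2, Scnn1a, Scnn1b and Scnn1g were not analysed here.

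Promoters are shown for 4 of the genes whose windows hold a classical binding motif of the stress responses, since these responses are known for driving many chaperone genes. They were chosen as examples, 3 from the ER and 1 from the cytosol, after the values were seen, and the other genes with a motif are named only. Windows of 250 bases before to 50 bases after the transcription start were taken from RefSeq (GRCm38.p6), and 52 of the 65 genes matched, with 64 windows. Both strands were searched. The ER stress element, searched as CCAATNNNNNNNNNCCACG, was in 6 member windows (9.38%), those of Calr, Canx, Dnajc3, Hsp90b1, Hspa5 and Pdia6, and in 0.119% of the 32851 windows of all genes. The heat shock element, searched as GAANNTTCNNGAA, was in 5 member windows (7.81%), of Dnajb6, Hspd1 and Hsph1, and in 0.603% of all windows. The glucocorticoid response element, searched as GNACANNNTGTNC, was in 0 member windows and in 0.475% of all windows, which says only that these letters are not in these windows. Capitals mark the matched motif in the sequences, which run 5′ to 3′ on the strand of the gene.
Hspa5, chr2:34771840-34772139, plus strand: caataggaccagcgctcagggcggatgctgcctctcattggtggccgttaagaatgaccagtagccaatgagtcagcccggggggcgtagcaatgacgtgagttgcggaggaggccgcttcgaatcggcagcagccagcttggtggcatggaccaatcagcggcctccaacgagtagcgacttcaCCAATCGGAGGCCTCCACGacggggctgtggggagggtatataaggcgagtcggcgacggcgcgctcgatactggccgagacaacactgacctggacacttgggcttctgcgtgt
Hsp90b1, chr10:86705395-86705694, minus strand: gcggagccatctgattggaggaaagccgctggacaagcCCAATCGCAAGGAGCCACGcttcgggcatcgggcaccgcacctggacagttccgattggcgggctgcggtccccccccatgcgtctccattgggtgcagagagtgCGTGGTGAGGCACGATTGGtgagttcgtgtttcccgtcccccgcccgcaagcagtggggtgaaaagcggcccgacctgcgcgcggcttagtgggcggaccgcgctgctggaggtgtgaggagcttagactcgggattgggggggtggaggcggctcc
Pdia6, chr12:17266339-17266638, plus strand: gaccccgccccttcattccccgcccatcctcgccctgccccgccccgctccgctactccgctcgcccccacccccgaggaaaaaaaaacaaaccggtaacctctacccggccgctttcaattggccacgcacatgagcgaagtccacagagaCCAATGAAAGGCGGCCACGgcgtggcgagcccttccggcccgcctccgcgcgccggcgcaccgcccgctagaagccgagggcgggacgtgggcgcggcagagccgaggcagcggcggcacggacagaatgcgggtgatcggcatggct
Hsph1, chr5:149636287-149636586, minus strand: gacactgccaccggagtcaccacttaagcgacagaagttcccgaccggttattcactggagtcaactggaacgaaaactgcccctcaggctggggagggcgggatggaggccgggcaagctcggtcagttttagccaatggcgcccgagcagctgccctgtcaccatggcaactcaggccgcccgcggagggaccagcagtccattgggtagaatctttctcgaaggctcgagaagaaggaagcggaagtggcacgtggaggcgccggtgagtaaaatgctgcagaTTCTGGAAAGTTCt
The first 3 hold the ER stress element and Hsph1 the heat shock element. With the first transcribed base as 1, the element lies at bases -65 to -47 of Hspa5 and -98 to -80 of Pdia6, and Hsp90b1 holds 2 matches, at -212 to -194 and at -107 to -89. The match of Hsph1 lies after the start, at bases 37 to 49. A match is a description of the letters and was not tested as a binding site.

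The question of the series is which transcripts dexamethasone alters early. Among the members, spots listed with a higher Cy5/Cy3 ratio were more frequent than spots listed lower on each dexamethasone array. The counts of higher and lower spots were 32 and 8 on the first array, 27 and 10 on the second and 15 and 8 on the third, of 266 member spots an array. Summed over the 3 arrays, 74 of 798 (9.27%) were higher and 26 (3.26%) lower, against 6.36% and 6.22% of the spots of all clones. The control pairs, listed in the same way, gave 28 higher and 14 lower, and 25 higher and 13 lower, together 53 of 532 (9.96%) and 27 (5.08%), against 5.97% and 6.47% of all clones. The surplus of higher over lower spots among chaperone clones was thus also present where both channels are titled control. The share listed higher was close in the control and dexamethasone pairs, and the share listed lower was smaller in the dexamethasone pairs.

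**Figure D1:**
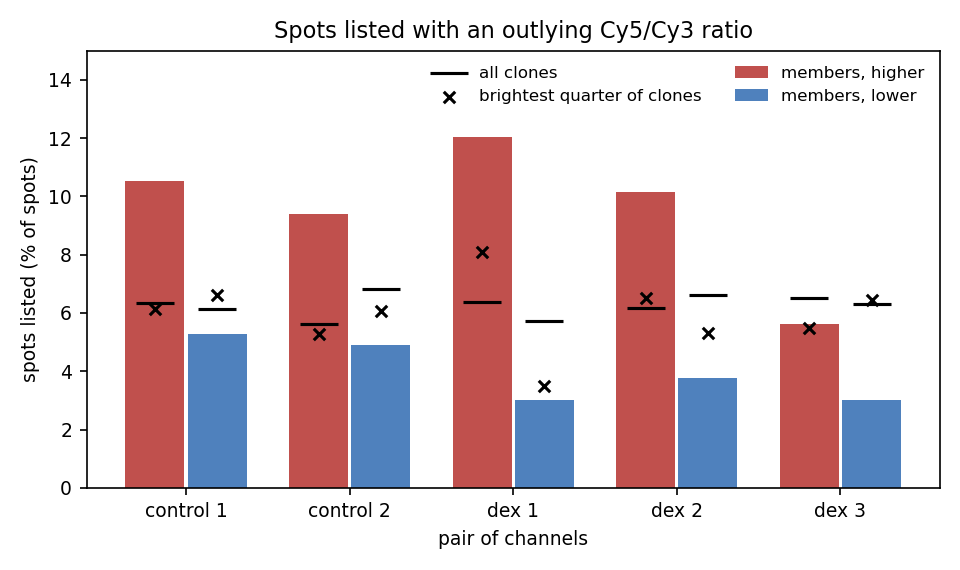
Share of member spots listed with a higher (red bars) or lower (blue bars) centred log2 Cy5/Cy3 ratio in each pair of channels, in percent of 266 spots. Lines give the same share over all clones and crosses over the bright clones, those above the 75th percentile of mean intensity on the control pairs. The red bars of both control pairs stand above their lines and crosses as those of the first and second dexamethasone pairs do, and the red bar of the third dexamethasone pair, at 5.64%, does not stand above its line.

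Chaperone clones are bright, and 83 of the 133 lie above the 75th percentile of the array by mean intensity on the control pairs. Among these, 54 of 498 spots (10.8%) were higher and 9 (1.81%) lower on the dexamethasone arrays, where all bright clones gave 6.71% and 5.08%. In the control pairs the bright members gave 40 of 332 (12.0%) higher and 18 (5.42%) lower, against 5.71% and 6.35% of all bright clones. Members were thus listed higher more often than bright clones as a whole in both kinds of pair. The dye ratio of the members was also above the centre without any selection: their median centred ratio was 0.06 in the first control pair and 0.07 in the second (log2), against 0.00 and 0.00 for all clones. The ratio was positive in both control pairs for 36.8% of member clones and 27.7% of all clones, and negative in both for 17.3% and 27.5%.

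**Figure D2:**
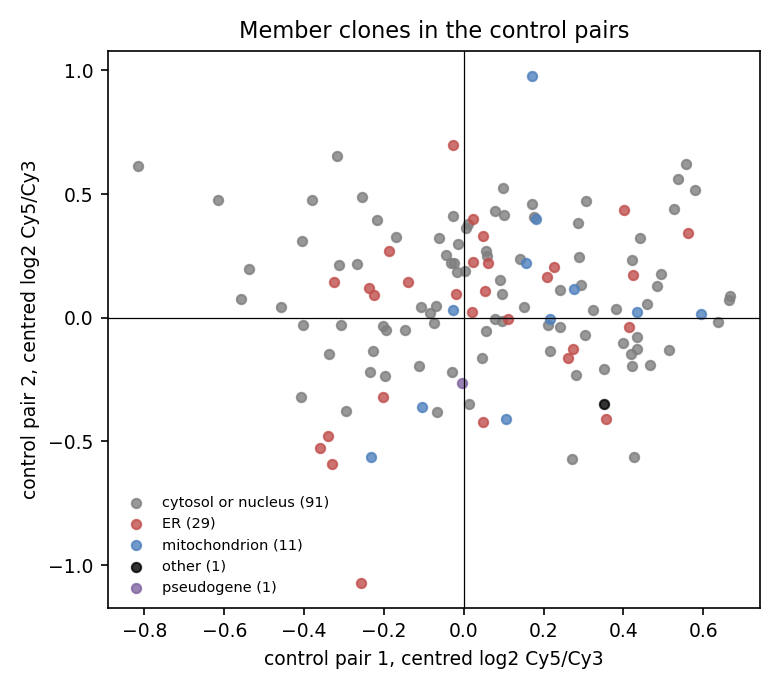
Centred log2 Cy5/Cy3 ratio of each of the 133 member clones in the first (x axis) and second (y axis) control pair, by compartment. Points lie more often at the upper right of the lines through 0 (36.8% of clones) than at the lower left (17.3%).

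By clone, 69 of the 133 were listed on at least 1 dexamethasone array and 64 on none. Over the whole array 8056 of the 15561 clones valued in both control pairs were listed, a similar share. More spots higher than lower were found for 47 member clones (35.3%), where all clones gave 24.2%. More lower than higher were found for 19 (14.3%), where all clones gave 23.2%. The other 3 listed clones, of Dnajc25, Ppig and Stip1, had equal numbers. Listing on at least 2 of the 3 arrays with every ratio higher was seen for 13 clones (9.77%), against 4.31% of all clones, and with every ratio lower for 1 clone (0.752%), of Hsp90aa1, against 4.29%. The 13 include more than 1 clone each of Hspa8 and Fkbp4. The same was not counted for bright clones alone or in the control pairs. Of the 17 member clones listed on at least 2 arrays, 14 (82.4%) kept 1 direction, as did 62.7% of all such clones. Most values rest on 1 of the 2 spots of a clone. Both spots were listed in 11 of the 89 member listings of a clone on an array (12.4%, against 12.8% of all listings). The spots had the same direction in 10 of these 11, and in 1181 of the 1338 such listings over all clones.

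By gene, 24 had listed spots in the higher direction alone, 9 in the lower alone, 11 in both and 21 in neither. A gene's clones are different cDNAs that share its symbol in the annotation, and whether they stem from 1 transcript was not checked. Of the 16 genes with at least 2 listed clones, 7 had all of them higher, 1 (Dnaja3) had all of them lower and 8 were mixed. The same counts were not made over all genes, so these counts by gene have no background beside them. The genes with no listed spot were Calr, Cct2, Cct3, Cct8, Cdc37, Dnaja1, Dnajb9, Dnajc8, Dnajc9, Dnajc10, Dnajc14, Dnajc15, Dnajc17, Dnajc30, Fkbp1a, Hsp90b1, Hspa14, Hspb1, Pdia4, Ppia and Ppid. Spotted cDNA also binds near-identical copies of a transcript, so signal of genes with many pseudogenes (Ppia, Hspa8, Hspd1) cannot be told apart from that of such copies where they are transcribed.

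No member passed the test of the dexamethasone pairs against the control pairs. In the limma fit of the 213 clones with a value in all 5 pairs, 1 clone passed at an adjusted p under 0.05 (0.469%), and it was no member. Only 3 member clones entered this fit, and 0 of them had an unadjusted p under 0.05, as 48 of the 213 (22.5%) had. With median centring 6 of the 213 (2.82%) had one, and with no normalisation 8 (3.76%). In the limma fit of the 8056 clones listed on any dexamethasone array, 1 clone passed (0.0124%) and 0 of 69 member clones did. There 12 member clones (17.4%) had an unadjusted p under 0.05, 7 of them higher, against 32.3% of all clones. Clones entered both fits only through outlying dexamethasone ratios, while the control ratios were not selected. The differences and p-values of both fits carry that selection. The smallest limma adjusted p among members was 0.145, for 1 clone each of Fkbp4, Dnajc3, Dnajb11 and Dnaja3. In the fit of the 8056 clones, a clone listed on 1 dexamethasone array is assumed to vary like the others. Listed ratios are large by selection, so the listing itself favours a place beyond both control ratios. Of the 69 listed member clones, 41 lay above both control ratios and 16 below both. The same was not counted over all clones. In every description that follows, "higher" and "lower" say where a listed ratio lies from the array's centre, and no member is said to have changed.

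By family the listings were uneven. The HSP70 and HSP110 family, 20 clones of 9 genes, had 21 of 120 spots higher and 2 lower in the dexamethasone pairs. By array these were 8 and 0, 9 and 1, and 4 and 1. In the control pairs it had 4 of 80 higher and 3 lower with the intensity-dependent centring used here. That background is not stable: with each pair centred on its median the control counts were 12 and 3, and with no normalisation 13 and 2, while the dexamethasone counts were 21 and 2, and 20 and 2. The low control count of this family therefore depends on the centring. All valued dexamethasone spots count as listed at any centring, so the dexamethasone counts could change only through the sign of a ratio. Hspa8 alone gave 11 of the 21 higher spots, and the family without Hspa8 had 10 of 84 higher and 2 lower, against 1 of 56 and 3 in the control pairs (5 and 3 with median centring, 6 and 2 with no normalisation).

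**Figure D3:**
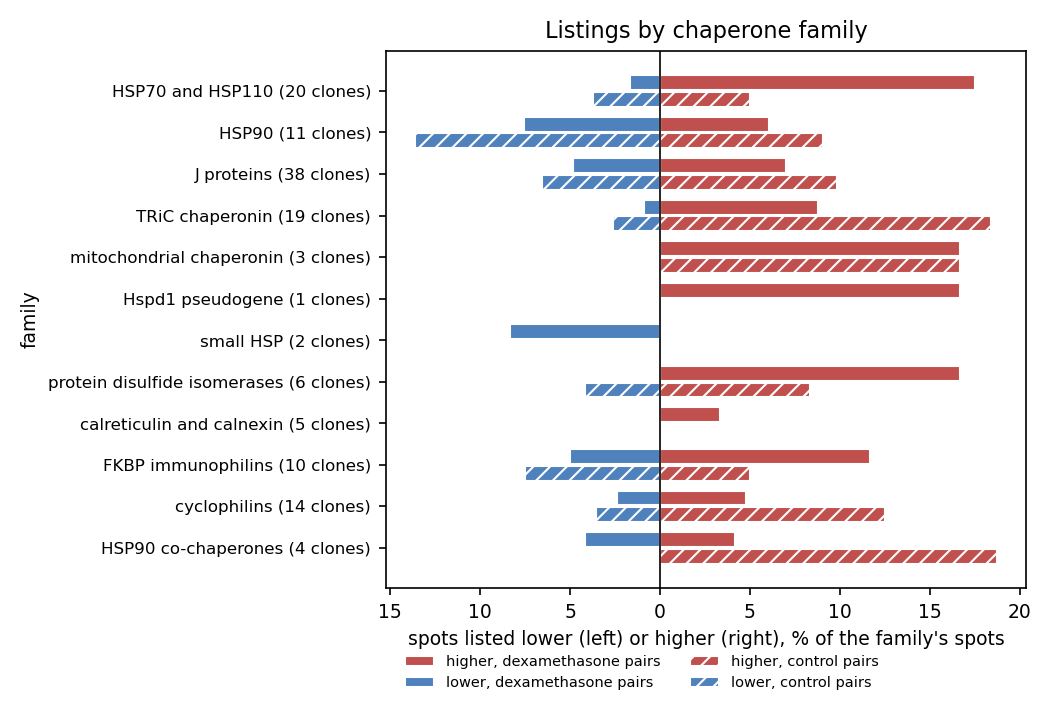
Spots listed higher (right) or lower (left) in percent of the spots of each family, for the 3 dexamethasone pairs (plain bars) and the 2 control pairs (hatched bars). HSP70 and HSP110 has 21 of 120 spots higher in the dexamethasone pairs and 4 of 80 in the control pairs, a control count that is 12 with median centring and 13 with no normalisation, whereas HSP90, the J proteins, TRiC, the cyclophilins and the HSP90 co-chaperones have the longer red bar in the control pairs. The HSP90 control bars are 4 higher and 6 lower spots of 44, which are 0 and 0 with median centring and 1 and 2 with no normalisation.

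Hspa8 (Hsc70), the constitutive cytosolic HSP70 that loads clients for HSP90, had 4 of 6 clones listed, all higher, with 11 spots. Clone 1522, the one Hspa8 clone listed on all 3 arrays, had ratios of 0.49 and 0.18 in the control pairs and 0.79, 0.67 and 0.42 in the dexamethasone pairs (log2). The mean of the dexamethasone pairs was 0.63 ± 0.19 (SD, n = 3) against a control mean of 0.34 (n = 2). The groups overlapped, since the third dexamethasone ratio lay below the first control ratio. In limma the difference was 0.29 ± 0.23 (standard error; adjusted p = 0.552). Against 0 in place of the control pairs, limma gave 0.63 (adjusted p = 0.0316). Listed ratios lie away from 0 by selection, so that fit cannot show a change. With median centring the difference from the control pairs was 0.07. It was 0.45 without control replicate 1, 0.13 without control replicate 2 and 0.77 with the Cy5 channels alone. Its Cy5 intensities were 3898 and 13737.5 in the control pairs and 3425.5, 17463 and 16994 in the dexamethasone pairs. Clone 588 had 0.31 and 0.47 in the control pairs and 0.59 and 0.63 in the first and second dexamethasone pairs, and clone 1257 had -0.03 and 0.41, and 0.55 and 0.66. In both clones each listed ratio lay above both control ratios, a place that listing by itself favours. Clone 14344 had 0.67 and 0.07, and 0.86 on the second dexamethasone array. The 4 listed clones were above the centre in 7 of their 8 control ratios. For clone 588 both channels were lower than on the control arrays, with a scaled Cy5 intensity of -1.33 and a Cy3 intensity of -1.66 (log2). The Cy5 channel compared across arrays thus did not go with the ratio.

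The other cytosolic HSP70 and HSP110 genes, except Hspa14, were listed on 1 array each. Hspa4, an HSP110 that exchanges the nucleotide of HSP70, had both spots of its clone higher on the second array, with a ratio of 0.69 against 0.06 and 0.27 in the control pairs. Hsph1, another HSP110, had 0.81 on the first array against 0.17 and 0.46 for 1 of its 2 clones. Hspa4l had -0.50 on the third array against 0.42 and 0.24, and its limma difference was -0.83 (adjusted p = 0.145). Hspa12a had 1 clone at 0.59 and 1 clone at -0.56, both on the second array, so that its clones disagreed. The clone at 0.59 had an intensity of 328 in both channels there, so that ratio rests on the centring. Hspa14 had no listed spot.

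Hsp90aa1, the stress-inducible cytosolic HSP90 and the receptor's main chaperone, has 9 clones, of which 5 were listed, with 4 spots higher and 5 lower. Clone 4896 had ratios of -0.82 and 0.61 in the control pairs and -0.57, -0.74 and 0.47 in the dexamethasone pairs. Its values ran over the same range in both kinds of pair, and the limma difference was -0.18 ± 0.58 (standard error; adjusted p = 0.931). Clone 15323 had -0.31 and 0.21 in the control pairs and -0.54 and -0.82 on the first and second arrays, with a mean of -0.68 ± 0.20 (SD, n = 2). It was the one member clone lower on 2 arrays with none higher. Both ratios lay below both control ratios, a place that listing by itself favours. The remaining listed clones were higher: clone 2525 at 0.72 on the second array, clone 2864 at 0.59 on the third and clone 6546 at 0.46 on the third. Clones of this gene thus gave opposite directions on the same array, and over all 9 clones the median control ratio was -0.31 in the first control pair and 0.21 in the second. The other cytosolic HSP90 gene, Hsp90ab1, was not analysed here.

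Fkbp4 (FKBP52), the immunophilin of the receptor's HSP90 complex, held the largest difference with a listing on 2 arrays. Clone 2348 had ratios of -0.24 and -0.22 in the control pairs and 0.77 and 0.83 on the first and second dexamethasone arrays, 0.80 ± 0.04 (SD, n = 2). Clone 5041 had -0.17 and 0.33 in the control pairs and 0.56 and 0.90 on the same arrays, 0.73 ± 0.24 (SD, n = 2). In both clones every listed ratio lay above both control ratios, a place that listing by itself favours. Neither clone has a value on the third array, so means and differences rest on the arrays that list them. Clone 5884 went the other way, at -0.57 on the third array against -0.07 and 0.05. In the limma fit of all listed clones the differences were 1.02 ± 0.21 (standard error) for clone 2348 (adjusted p = 0.145) and 0.65 ± 0.27 for clone 5041 (adjusted p = 0.154). For clone 5884 it was -0.55 ± 0.29 in limma (adjusted p = 0.20). The Cy5 intensities of clone 2348 were 872 and 1928 in the control pairs and 600 and 1712 in the dexamethasone pairs, and its Cy3 intensities were 970 and 2480, and 369 and 920. On the scale of the control arrays its Cy5 excess was 0.34 and its Cy3 excess -0.91. These values compare intensities across arrays and do not assign the difference to 1 channel. For clone 5041 the excess was 1.14 in Cy5 and 0.01 in Cy3. With median centring the differences of clones 2348 and 5041 were 0.98 and 0.87, and with no normalisation 1.03 and 0.91.

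**Figure D4:**
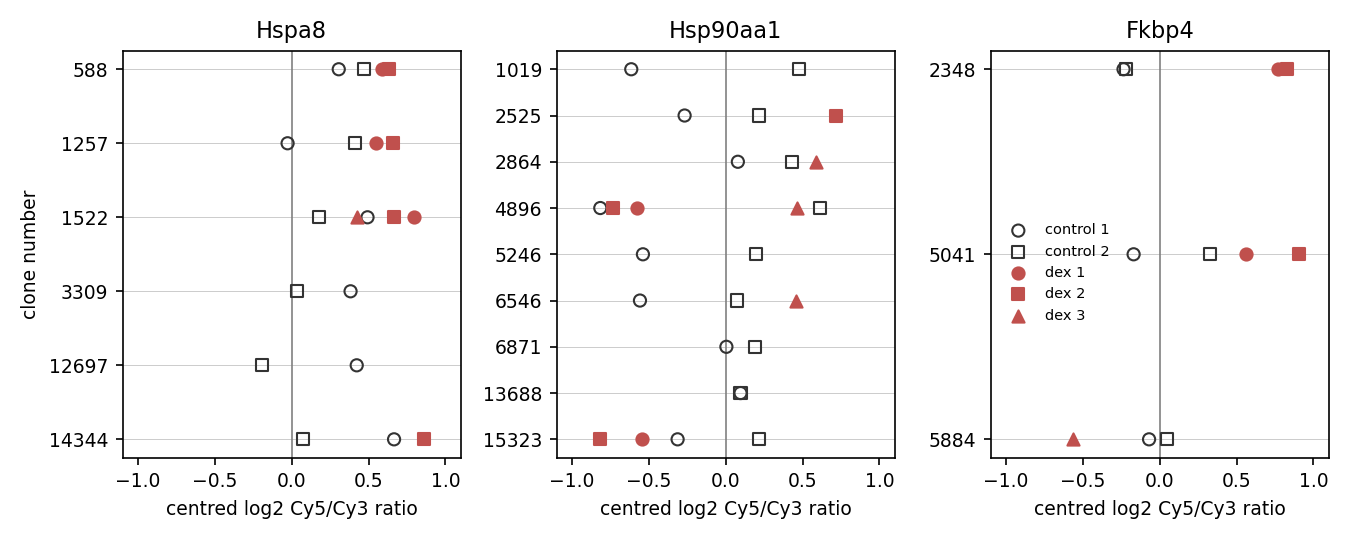
Centred log2 Cy5/Cy3 ratio of every clone of Hspa8, Hsp90aa1 and Fkbp4 in the 2 control pairs (open symbols) and on the dexamethasone arrays that list it (filled red symbols). Listed Hspa8 ratios run from 0.42 to 0.86, those of Hsp90aa1 lie on both sides of 0, and 2 of the 3 Fkbp4 clones lie above their control ratios.

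The other partners of the receptor complex gave little. Stip1 (HOP), the bridge between HSP70 and HSP90, had 1 of its 2 clones listed, at 0.49 on the first array and -0.67 on the second, against 0.58 and 0.52 in the control pairs. Its dexamethasone ratios were on opposite sides of the centre and its control ratios on the same side. Cdc37, which brings kinases to HSP90, had 0 of 2 clones listed, as did the cyclophilin Ppid (1 clone), the J protein Dnaja1 (3 clones) and the immunophilin Fkbp1a (FKBP12) (1 clone). Dnajb1 (Hsp40), the stress-inducible J protein, had 1 of 2 clones higher on the first array, at 0.65 against -0.09 and 0.02, with a limma difference of 0.69 (adjusted p = 0.160). Ptges3 (p23) was not analysed here. Of the clones of 3 genes that are no members, that of Sgk1, a kinase and known glucocorticoid target, was listed higher on all 3 arrays (0.79, 0.62 and 0.89, against -0.04 and 0.14), while those of Fkbp5 and of the receptor itself, Nr3c1, were not listed.

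By compartment, the cytosol or nucleus had 49 of 546 spots higher (8.97%) and 18 lower (3.30%) in the dexamethasone pairs, against 40 of 364 (10.99%) and 16 (4.40%) in the control pairs. The ER had 9.77% higher and 2.87% lower, against 6.03% and 6.03%, so the share listed higher was above that of the control pairs in the ER and below it in the cytosol or nucleus. The contrast was not tested and depends on the centring: with median centring the ER had 16 of 174 spots higher with dexamethasone and 12 of 116 in the control pairs, a larger share in the control pairs.

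In the ER, 15 of 29 clones were listed, 11 with more spots higher and 3 with more lower. Spots were 17 higher and 5 lower of 174 in the dexamethasone pairs, by array 9 and 2, 4 and 0, and 4 and 3. The control pairs gave 7 and 7 of 116 (12 and 9 with median centring, 10 and 8 with no normalisation). The first array gave 9 of the 17 higher ER spots, and without it 8 higher and 3 lower were left.

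Hspa5 (BiP), the ER HSP70 and the standard marker of ER stress, had the highest ratio of any member clone. Clone 3346 was at 0.42 and 0.17 in the control pairs and at 1.32 and 0.61 on the first and second dexamethasone arrays, 0.97 ± 0.50 (SD, n = 2). Both listed ratios lay above both control ratios, a place that listing by itself favours. The limma difference was 0.67 ± 0.30 (standard error, adjusted p = 0.163). The Cy5 intensities were 2772.5 and 6119 in the control pairs against 1901 and 840 in the dexamethasone pairs. Relative to the control arrays the scaled Cy5 intensity was -1.03 and the Cy3 intensity -1.78, so the clone was dim in both channels of these arrays. The treated channel alone, compared across arrays, did not go with the ratio, and such a comparison does not assign the ratio to 1 channel. The other 2 Hspa5 clones, 6508 and 12410, were not listed. The promoter printed for Hspa5 holds the ER stress element, as do those of 3 other listed genes (Canx, Dnajc3 and Pdia6) and 2 that were not listed, Calr and Hsp90b1 (Grp94, the ER HSP90). Of all 65 member genes 21 were not listed, a similar share, and a link of the element with listing was not tested.

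The protein disulfide isomerases, which form and rearrange disulfide bonds, had 5 of 6 clones listed with 6 of 36 spots higher and 0 lower, against 2 and 1 of 24 in the control pairs. With median centring the counts were 5 and 1, against 1 and 1 in the control pairs, and with no normalisation 6 and 0, against 0 and 1. Pdia3 (ERp57), the partner of calnexin and calreticulin, was at 0.05 and 0.33 in the control pairs and at 0.38 and 0.52 on the first and the third array. Both listed ratios lay above the control ratios, a place that listing by itself favours, and with median centring the difference of 0.26 became -0.33. Pdia5 had both clones higher, at 0.71 on the first array and 0.55 on the second, and Pdia6 (P5) had both clones higher, at 0.49 on the third and 0.45 on the first. The Pdia5 clone on the second array had 381 in Cy3 and 393 in Cy5, so its ratio rests mostly on the centring. Pdia4 (ERp72) was not listed.

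Among the lectins, Canx (calnexin) had 1 of 4 clones listed, at 0.58 on the first array against 0.06 and 0.22, and Calr (calreticulin) had none. Ppic, a cyclophilin of the secretory pathway, was at 0.54 and 0.55 on the first and the third array against 0.02 and 0.40, with a limma difference of 0.34 (adjusted p = 0.290). That difference was 0.18 with median centring, 0.64 with no normalisation and 0.03 with the Cy5 channels alone. Hspa13, an HSP70 of the secretory pathway, was at 0.61 on the third array against 0.02 and 0.02. Fkbp9 had 1 of 2 clones listed, at -0.50 on the third array, but stood lower already in the control pairs, at -0.26 and -1.07.

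The listed ER J proteins lay on both sides of the centre. Dnajc3 (p58IPK), an inhibitor of the kinase PERK, had all 3 clones listed, at 0.85 and -0.65 on the first array and 0.84 on the second, each for another clone. Its clone 10374, at 0.84 against -0.34 and -0.48, had the largest limma difference of any member, 1.25 ± 0.29 (standard error; adjusted p = 0.145). Dnajb11 (ERdj3), a cofactor of BiP, was at -0.62 on the first array against 0.56 and 0.34, a limma difference of -1.08 ± 0.29 (standard error; adjusted p = 0.145). Dnajc25 was listed on all 3 arrays, at 0.53, 0.63 and -0.80 against -0.24 and 0.12. In limma its difference was 0.18 ± 0.50 (standard error; adjusted p = 0.913), and the third array went against the first and second. Dnajb9 (ERdj4) and Dnajc10 (ERdj5) were not listed.

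**Figure D5:**
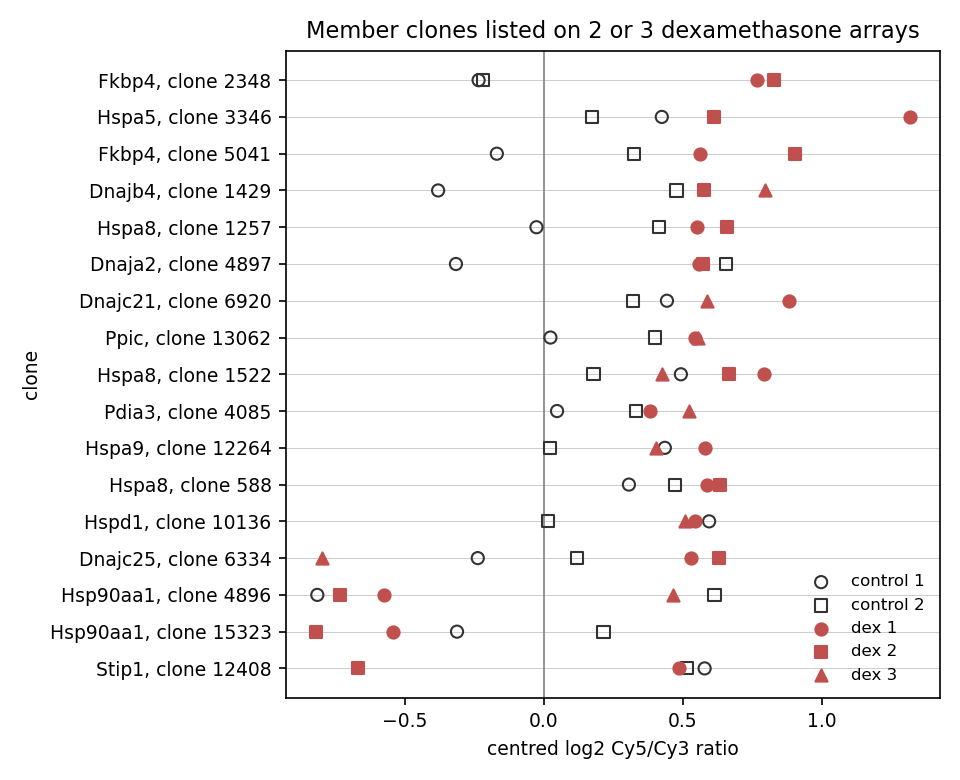
Centred log2 Cy5/Cy3 ratio of the 17 member clones listed on 2 or 3 dexamethasone arrays (filled red symbols) beside their 2 control ratios (open symbols), ordered by the difference of the means. In 13 clones every filled symbol lies right of 0 and in 1, Hsp90aa1 clone 15323, every one lies left.

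The cytosolic chaperonin TRiC, a ring that folds actin and tubulin, had 9 of 19 clones listed, with 10 of 114 spots higher and 1 lower. The control pairs gave 14 of 76 higher and 2 lower, a larger share, so TRiC clones stood above the centre in Cy5 also without dexamethasone (15 and 1 with median centring and with no normalisation). Cct7 had 3 of 4 clones higher: clone 8009 at 0.69 with both spots on the second array, against 0.56 and 0.62 in the control pairs, clone 11765 at 0.91 against 0.24 and -0.04, and clone 12090 at 0.56 against 0.30 and -0.07. The ratio of clone 8009 was thus about as high in the control pairs. Cct4 had 2 clones at 0.52 and 0.64 and 1 at -0.67, all on the first array. Tcp1 had both clones higher on the first array, at 0.45 and 0.52, and Cct5 had 1 of 3 clones at 0.72 on the second. Cct2, Cct3 and Cct8 had 0 of 7 clones listed with dexamethasone, and 4, 3 and 1 spots listed higher in the control pairs. Cct6 clones were not analysed here.

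In the mitochondrion 7 of 11 clones were listed, with 6 spots higher and 3 lower of 66, against 5 and 4 of 44 in the control pairs. Hspd1 (HSP60), the chaperonin of the matrix, had 2 of 3 clones higher. Clone 10136 was at 0.54 and 0.51 on the first and the third array against 0.59 and 0.01, and clone 12922 at 0.72 on the second against 0.28 and 0.12. The listed ratios of clone 10136 lay inside the range of its control ratios, and its difference of 0.22 became -0.09 with median centring. Hspa9 (mortalin), the HSP70 of protein import, was at 0.58 and 0.40 on the same arrays against 0.44 and 0.02, and its difference of 0.26 became -0.26 with median centring. Dnaja3 (Tid1), the J protein of the matrix, was the one gene with more than 1 listed clone and all of them lower: clones 360 and 8924 were at -0.82 and -0.73 on the second array, against 0.22 and 0.00, and -0.03 and 0.03. Their limma differences were -0.92 (adjusted p = 0.145) and -0.73 (adjusted p = 0.151). Dnajc11 had 1 clone at 0.60 and 1 at -0.72. Hspe1, the partner of Hspd1, and the cyclophilin Ppif were not analysed here.

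J proteins as a whole, 38 clones of 23 genes, had 16 of 228 spots higher and 11 lower, against 15 and 10 of 152 in the control pairs, and 11 clones with more spots higher against 9 with more lower. Dnajb4, a cytosolic J protein of the stress response, was at 0.58 and 0.79 on the second and the third array against -0.38 and 0.48. Both lay above both control ratios, a place that listing by itself favours. On the second array it had 332 in Cy3 and 329 in Cy5, so that ratio rests on the centring. Its difference of 0.64 was 0.48 with median centring, 0.47 with no normalisation and 0.27 with the Cy5 channels alone. Dnaja2, a partner of Hspa8, was at 0.56 and 0.57 on the first and second arrays, between its control ratios of -0.32 and 0.65. Dnajc21, which acts in ribosome maturation, was at 0.88 and 0.59 on the first and the third array against 0.44 and 0.32 for clone 6920, and at -0.47 on the third array for clone 3128. Its clones disagreed. Dnajb6 had both clones higher, at 0.51 and 0.61, and Dnajc2 had 1 of 2 at 0.60. Dnajc7, which has TPR repeats and binds HSP70 and HSP90, had 1 clone at 0.63 and 1 at -0.52. Dnajc5 (cysteine string protein), at -0.71, and Dnajc13, at -0.62, were lower on 1 array each.

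The FKBP immunophilins, prolyl isomerases that bind FK506, had 7 of 10 clones listed, with 7 spots higher and 3 lower of 60, against 2 and 3 of 40 in the control pairs (2 and 6 with median centring, 2 and 7 with no normalisation). Fkbp4 gave 5 of the 7 higher spots. Fkbp15 was at 0.65 on the first array, Fkbp8 at 0.67 on the second, and the nuclear Fkbp3 at -0.87 on the second for 1 of its 2 clones. The cyclophilins, prolyl isomerases that bind cyclosporin, had 4 of 14 clones listed, with 4 spots higher and 2 lower of 84, against 7 and 2 of 56 in the control pairs. Ppia (cyclophilin A) had 0 of 5 clones listed with dexamethasone, and 6 spots higher in the control pairs, where the median ratio of its clones was 0.51 and -0.08. Ppie was at 0.78, Ppih at -0.57, and the 2 spots of 1 Ppig clone lay on opposite sides. Ppie had 230 in Cy3 and 259 in Cy5 on the second array, so most of its ratio came from the centring. The small heat shock protein Hspb8 was at -0.87 on the first array, and Hspb1 (HSP25) was not listed. Hspd1-ps3 was at 0.64 on the second array, with 314 in Cy3 and 323 in Cy5, so its ratio also rests mostly on the centring.

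Since both channels of a dexamethasone array make the ratio, each listing was split into the treated channel and the control channel, both scaled to the control arrays. An excess compares intensities across arrays, where both channels of a clone could move together: Hspa8 clone 14344 had 3.32 in Cy5 and 2.31 in Cy3. It therefore does not assign a ratio to 1 channel. In the 65 higher listings of a member clone on an array, the median Cy5 excess was 0.36 and the median Cy3 excess -0.36 (log2), and Cy5 went the way of the ratio in 44 (67.7%, against 62.8% of all higher listings). In the 24 lower listings the medians were -0.49 in Cy5 and 0.03 in Cy3, and Cy5 went the way of the ratio in 20 (83.3%, against 66.2%). Over all clones the medians were 0.21 in Cy5 and -0.44 in Cy3 for higher listings, and -0.36 and 0.33 for lower ones. Higher listings had a positive Cy5 median and a negative Cy3 median for members as for all clones. The lower listings of members, unlike those of all clones, had a Cy3 median near 0. These contrasts were not tested. In the control pairs limma found 50 of 15561 clones with a dye ratio away from 0 (0.321%) and 0 of the 133 members, of which 16 (12.0%, against 8.68% of all clones) had an unadjusted p under 0.05, 11 of them higher. The smallest adjusted p among members in limma was 0.0786, for Fkbp9 clone 584. In this fit every member clone had the same standard error, 0.187 (log2), so p followed the size of the mean ratio alone. It did not measure how far the 2 control ratios of a clone differed, and those of clone 584 were -0.26 and -1.07. These counts depend on the centring: limma called 0 clones with median centring, where 171 of all clones and 4 members had an unadjusted p under 0.05, and 0 with no normalisation, where 18 and 0 had.

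Genes that work beside the chaperones were described by their counts. The list of ER stress and ER-associated degradation, 39 clones of 24 genes, had 16 of 234 spots higher (6.84%) and 2 lower (0.855%) in the dexamethasone pairs and 7 and 5 in the control pairs, with 14 clones net higher and 2 net lower. Ssr3, a subunit of the translocon-associated complex, had the highest ratio, 1.34 on the second array against 0.20 and -0.16, and Sec61a1, the pore of the translocon, was at 0.61 and 0.76 on the second and the third array against -0.28 and 0.22. The 2 lower spots were of Ern1 (-1.16 on the first array) and Ssr2 (-0.73 on the second), and other clones of both genes were higher. The other Ssr3 clone and the clones of Xbp1 and Atf4 were not listed. The share of this list's spots that were higher was near that of all clones, and it was the share lower that was small. The other co-chaperones and heat shock regulators, 25 clones of 18 genes, had 6 spots higher and 7 lower, and 10 and 8 in the control pairs. Prefoldin and tubulin folding factors (9 clones) had 2 higher and 1 lower, against 1 and 0, and mitochondrial quality factors (10 clones) 2 and 3, against 4 and 2. In the limma fit of all listed clones 0 clones of these lists passed. The collecting duct list, which is bright like the chaperones, had 5 spots higher and 0 lower in the dexamethasone pairs and 4 and 0 in the control pairs. The fibroblast list had 2 and 3, against 4 and 2, the proximal tubule list 1 and 1, against 1 and 0, and the leukocyte and endothelial list 0 and 0 in both. The part of brightness and dye in the members' counts was not tested.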

How the data were processed

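Spot intensity on a linear scale is the deposited measurement, in whole numbers, 1 column per channel, quantified in Imagene 4.0 per the series' design text. How background was corrected, how values were normalised and by which rule the dexamethasone arrays were limited to outlying spots is not given in the sources used here. Clones were named from the platform's annotation, which can be old: 9866 had 1 symbol, 274 several and 5460 none. Each spot's log2 Cy5/Cy3 ratio was taken and the ratios of a clone averaged. Lowess along intensity (span 0.2, statsmodels 0.14.6) centred the control pairs, and dexamethasone pairs were centred on the midpoint of their empty band (windows of 150 spots, span 0.3). Control channels were paired through their title number. The joined channels shared their blank spots (178 of 178 and 258 of 258, against 3 between numbers) and correlated at r = 0.933 and 0.927, against 0.727 to 0.782. A control spot counted as listed when it was among the largest centred ratios within windows of 600 spots of like intensity.

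Dexamethasone and control pairs were compared with limma 3.58.1 (R 4.3.3, statmod 1.5.0) with Benjamini-Hochberg adjustment over all clones fitted and a threshold of 0.05. The fit was also run on simulated pairs with complete values. These lacked the limit to outlying ratios and the missing arrays, so that run does not cover the selection in the real data. The members, lists and alternatives were chosen with earlier results of these data known. Named with values were genes with a clone listed on at least 2 dexamethasone arrays, and a list of receptor, ER, mitochondrial and chaperonin genes of which 28 of 35 had a clone. Other listed members are named so that each gene is accounted for. Alternatives covered centring, an added value of 50, dim spots (mean intensity under 200), 1 clone per gene, single channels, blocks and each pair left out. The number of arrays limits the precision.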

Additional observations from a re-analysis of the deposited data

How the results depend on the processing

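The count of clones passing in limma, 1 of 213, was 1 with median centring, no normalisation, 50 added, dim spots left out and all listed clones, and 101 with the dexamethasone pairs against 0. It was 0 with any 1 of the 5 pairs left out (lowest 0, highest 0), where fewer arrays and another set of clones were fitted, and 0 with the Cy5 channels alone, with no replicate block and with a random replicate block for the pair (correlation 0.657). Unadjusted, p was under 0.05 for 33 of 213 and 31 of 216 clones without a control pair, for 181 of 849, 222 of 884 and 237 of 824 without a dexamethasone pair, and for 29, 20 and 11 of 213 in these channel fits. Member clones passing numbered 0 throughout, except 1 against 0 (Hspa8 clone 1522). Listed ratios lie away from 0 by selection, so the fit against 0 cannot show a change. With all listed clones 12 members had an unadjusted p under 0.05, in a fit whose dexamethasone ratios were selected as outlying. With a pair left out, the limma difference ran from -0.90 to 0.53 for Hsp90aa1 clone 4896 (0.53 without control replicate 2, 0.05 without dexamethasone replicate 2), and from -0.075 to 0.64 for Dnajc25 clone 6334 (-0.03 without dexamethasone replicate 1, -0.075 without replicate 2). For Hspa8 clone 1522 it ran from 0.13 to 0.45. The causes were not tested.

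Member spots listed higher, 74, numbered 73 with median centring, 72 with no normalisation, 74 without dim spots, 54 among clones above the 75th percentile of brightness (chosen after seeing the data), 33 with 1 clone per gene, 16 with both spots of a clone, and 42 to 59 with 1 array left out (42 without dexamethasone replicate 1, 47 without replicate 2). Spots listed lower, 26, numbered 27, 27, 24, 9, 12 and 4, and 16 to 18 with 1 array left out (16 without replicate 2). Fewer spots enter these last settings. All valued dexamethasone spots count as listed at any centring, so centring could change the dexamethasone counts only through the sign of a ratio. Control listings were picked anew for each centring. Control counts of 53 and 27 became 59 and 23 with median centring and 64 and 26 with no normalisation. No member passed the dye test in any of its 3 centrings, and its 50 calls over all clones were 0 with median centring and 0 with no normalisation.

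Of the 17 clones on at least 2 arrays, 0 changed sign with no normalisation, 3 with median centring (Pdia3, Hspd1 and Hspa9) and 5 with the Cy5 channels alone (Hspa8 clone 588, Hspa5, Dnajc21, Hspa9 and Stip1). Median centring moved the median difference of the 213 clones from -0.03 to -0.25. Limits are the truncated arrays, 1 listed spot for most values, 2 control pairs and the unswapped dye.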
